A study of Homo sapiens with 4 samples.

Results

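The genes described here encode 38 enzymes and enzyme subunits of purine and pyrimidine synthesis, nucleotide salvage, and one-carbon and methionine metabolism. They were chosen by gene name from a list of such enzymes, and all 38 were found among the 51103 genes measured. The cells were AGS, an established human gastric adenocarcinoma line, grown in medium with serum, and polyadenylated RNA was sequenced with a kit that does not mark the strand. One group of 2 libraries, called FGF2, received recombinant human fibroblast growth factor 2 at 20 ng/mL and was harvested after 24 h. The other group of 2 libraries carries the name NC, which is nowhere written out. Because the text on treatment describes added FGF2 for the NC libraries as well, the treatment of the NC cells is unknown here. The series title links FGF2 from cancer-associated fibroblasts to proliferation and to the making of ribosomes, which draws on the cell's nucleotide supply. The comparison of FGF2 with NC asks here whether the transcripts of the enzymes behind that supply differed.

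Cells build purines on a phosphoribosyl pyrophosphate (PRPP) scaffold, step by step, up to inosine monophosphate, from which the AMP and GMP branches part. Pyrimidines are made as a ring first, which is then joined to PRPP to give UMP. Folate-bound one-carbon units, mostly drawn from serine, supply carbon atoms to the purine ring and to thymidylate, and also feed methionine and its methyl donor S-adenosylmethionine. Salvage enzymes return free bases and nucleosides to the nucleotide pool, and proliferating tumour cells commonly run the synthesis and the salvage routes side by side.

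Library 2 of each group held the reads of library 1, so each group counts as 1 sample and no p-value is given. Library 1 exceeded library 2 at 2 of 22043 genes in FGF2 and at 2 of 22485 genes in NC, where 1192 and 1214 genes would be expected of separate libraries. Total counts were 13790335 and 27598608 for FGF2 libraries 1 and 2, and 14073340 and 27325697 for NC. Each group was therefore read as 2 disjoint read sets, library 1 and the other reads of library 2. In what follows, a gene is called higher when the lower FGF2 read set was at least 1.2-fold above the higher NC read set, and lower in the mirror case, where the read sets averaged 50 counts or more. Levels are deposited FPKM values (read counts divided by the length of the exons and by library size), and fold changes are log2 ratios of library 2 counts scaled by TMM factors (edgeR's trimmed mean of M values), with a 95% Clopper-Pearson interval that covers counting error only. That interval is too narrow, since the disjoint sets of a group differed by more than counting error, with a chi-square per gene of 2.42 in FGF2 and 2.46 in NC. TMM set the fold changes 0.08 higher on the log2 scale than the ratio of FPKM values does. Of 12 genes known as targets of FGF and ERK signalling, 11 reached the minimum, and 10 of those were called higher and 1 lower, EGR1 (log2 fold change -0.73), named here after its value was seen. Of all 11000 genes above the minimum, 12.2% were called higher and 13.8% lower.

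The AGS label was set against marker genes. Of 9 gastrointestinal epithelial markers, 4 reached the count minimum: KRT8, KRT18, KRT19 and GATA6. EPCAM stood at 0.518 FPKM in FGF2 library 2 and 1.19 in NC library 2, and VIL1 was at 0 counts in both. In the same libraries CLDN4 stood at 0.462 and 0.654 FPKM, CLDN7 at 0.145 and 0.162, and CDH17 at 0 and 0.0188. The 9 markers summed to 446 and 440 FPKM in the FGF2 libraries and to 487 and 494 in NC. KRT8 made the sum lower in FGF2, with a log2 fold change of -0.42, while KRT19 (0.88) and GATA6 (0.57) were called higher and KRT18 stood at 0.13. Of 10 fibroblast markers, 3 reached the minimum. In FGF2 and NC library 2, COL1A1 stood at 59.45 and 103.8 FPKM (log2 fold change -0.72), and PDGFRB at 6.285 and 21.0 (-1.66). Both were called lower, against 13.8% of all genes. THY1 stood at 18.03 and 18.88 FPKM (0.01) without a call. COL1A2 and FAP were at 0 counts in both libraries 2. The list summed to 84.3 and 83.8 FPKM in FGF2 and to 141 and 145 in NC. The 7 endothelial markers summed to between 0.309 and 0.402 FPKM with KDR, TEK and EMCN at 0, and the 7 blood and immune markers to between 0.384 and 1.07 FPKM with CD3E, MS4A1, CD68, LYZ and HBB at 0. The part of these differences in the values of the enzymes was not tested. In such bulk RNA, a change in the share of cells of a kind and a change in RNA per cell cannot be told apart.

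All 38 enzymes were measured above the minimum, with means of 69.8 to 6241.8 counts per read set and a median of 1762.5. By the 1.2-fold rule, 10 of them (26.3%) were called higher in FGF2, namely PPAT, PFAS, ATIC, IMPDH1, IMPDH2, DHODH, NME1, NME2, NT5E and PNP, against 12.2% of all 11000 genes above the minimum. None was called lower, against 13.8% of those genes. By a 1.5-fold bound, NT5E alone was called higher, against 3.06% of all genes, and 0 were called lower, against 5.42%. The FGF2 read sets both lay above both NC read sets, by any margin, at 29 enzymes (76.3%), against 36.6% of all genes. They both lay below at 1 enzyme, SHMT1, against 32.4% of all genes. At the other 8 enzymes the groups overlapped.

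The median log2 fold change over the 38 enzymes was 0.25, or 1.19-fold, with values from -0.32 to 1.02, and 34 (89.5%) were above 0. Over all genes above the minimum, the median was 0.02, with 52.9% above 0. For 19 of the 38 the value lay within 0.26 of 0, which is the 1.2-fold bound on the log2 scale. Abundant genes leaned toward FGF2 in these libraries, with a median of 0.09 and 65.8% above 0 over the 3368 genes of at least 1000 mean counts. Against those, the 27 enzymes of the same abundance had a median of 0.25 and 24 of them (88.9%) were above 0. Their share called higher, 5 of 27 (18.5%), was close to the 15.9% of all abundant genes. None of the 27 was called lower, against 7.96% of the abundant genes. The FGF2 read sets lay above both NC read sets, by any margin, at 22 of the 27, against 1756 of the 3368 abundant genes. They lay below at 1 of the 27, against 845 of the 3368. Scaled by total count alone, 5 of the 38 enzymes were called higher (NT5E, PNP, PPAT, NME1 and NME2), against 8.49% of all genes. SHMT1 was then called lower, against 17.6% of all genes, the median was 0.17, and ADSS, MTR, PRPS1 and PRPSAP2 turned negative.

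**Figure D1:**
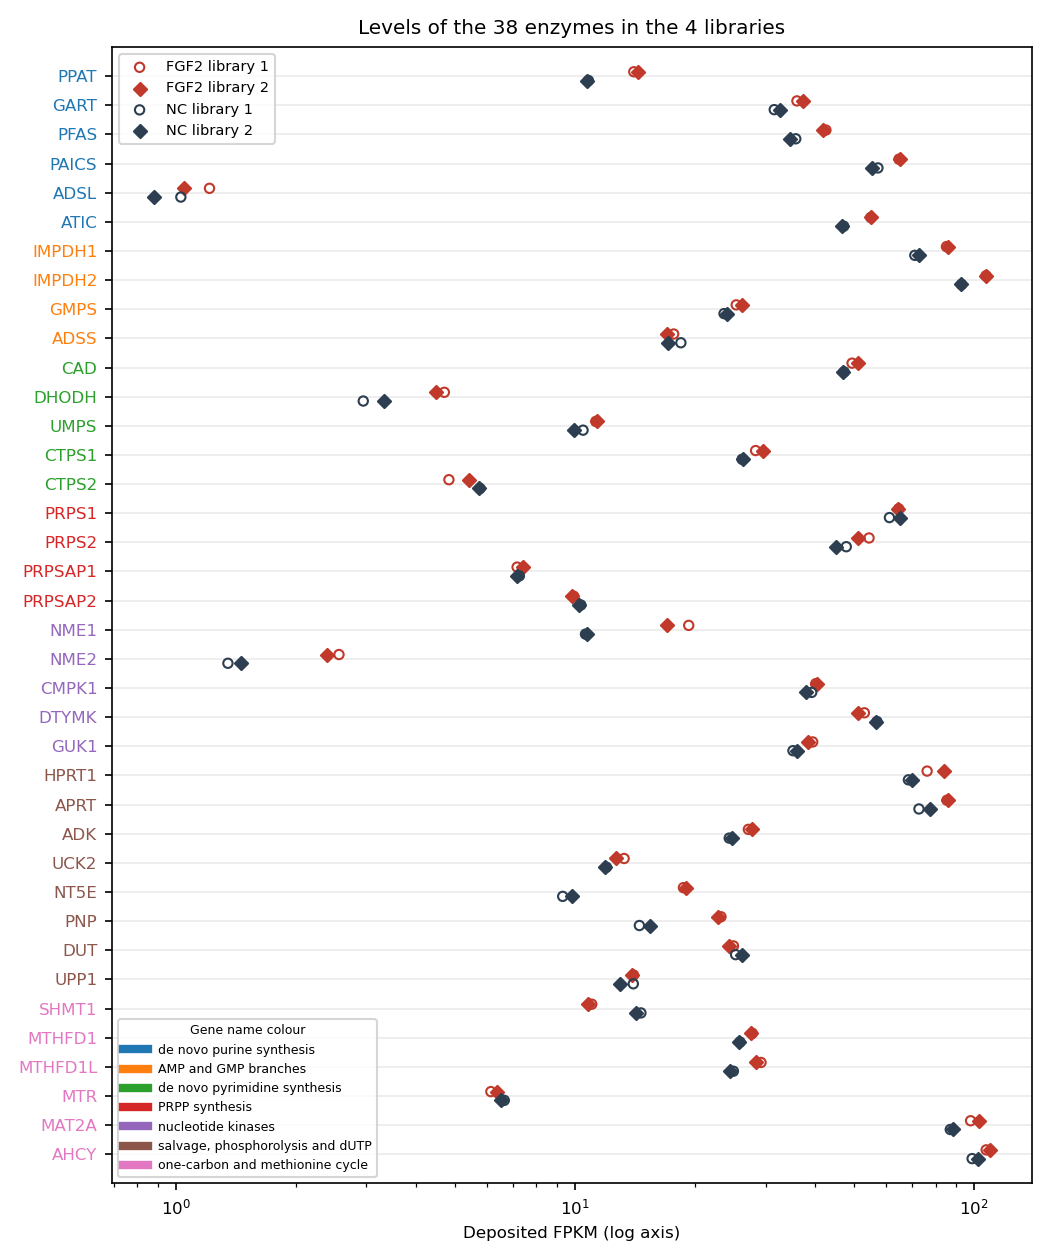
Deposited FPKM of the 38 enzymes (log axis) in the FGF2 libraries (red) and the NC libraries (dark blue), with open circles for library 1, diamonds for library 2 and gene names coloured by role. The library 2 symbol includes the reads of library 1; the groups are widest apart at NT5E, NME1, NME2 and PNP, and SHMT1 is the enzyme whose FGF2 symbols lie farthest to the left of NC.

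De novo purine synthesis had 6 enzymes whose log2 fold changes all lay above 0, from 0.28 to 0.50 with a median of 0.32. The FGF2 read sets lay above both NC read sets at 5 of the 6, against 36.6% of all genes. By the 1.2-fold rule 3 were called higher, against 12.2% of all genes. Under total-count scaling 1 of the 6 was called, against 8.49% of all genes. PPAT (chr4:56393362-56435615, minus strand), the amidotransferase that commits PRPP to the purine route, stood at 14.0 and 14.3 FPKM in FGF2 libraries 1 and 2 and at 10.8 and 10.7 in NC. Neither FGF2 library came near the NC libraries, and the log2 fold change was 0.50 (95% counting interval 0.40 to 0.59), with 0.46 in library 1 and 0.53 in the other reads. PPAT is the member of the route that stayed called under total-count scaling. PFAS (chr17:8247618-8270491), the amidotransferase that makes formylglycinamidine ribonucleotide, stood at 42.5 and 41.8 FPKM against 35.7 and 34.6, a log2 fold change of 0.35 (0.31 to 0.40). ATIC (chr2:215311817-215349773), the bifunctional enzyme of the last steps to inosine monophosphate, stood at 55.0 and 55.0 FPKM against 47.1 and 46.8, a log2 fold change of 0.31 (0.26 to 0.37). The groups did not overlap at PFAS or ATIC, but both calls ended under total-count scaling.

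The other members of the route missed the call by their nearest read sets. GART, the trifunctional enzyme that also carries a folate-dependent formyl transfer, stood at 36.0 and 37.3 FPKM in FGF2 and 31.5 and 32.5 in NC, a log2 fold change of 0.28. PAICS (chr4:56435741-56464579, plus strand), which carboxylates the growing ring and adds aspartate, stood at 64.8 and 65.3 FPKM against 57.4 and 55.6, a log2 fold change of 0.31. At both genes the FGF2 read sets lay above the NC read sets. ADSL, the lyase that acts in the route and again in the AMP branch, stood at 1.21 and 1.05 FPKM against 1.03 and 0.880, from 206 and 171 counts in libraries 2. Its read sets overlapped, its log2 fold change of 0.33 had an interval of 0.04 to 0.64, and 68.8% of its coding bases are shared with another annotated gene, AL022238.4, so its level is uncertain.

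PPAT and PAICS are neighbours that start on opposite strands of chromosome 4, and both act in de novo purine synthesis, so the sequence between their starts is shown. It runs from PPAT's first base to the start of PAICS in GENCODE v29, is given on the plus strand, and carries the letters GGGCGG, the GC box bound by SP factors, in capitals at 3 places. It is 125 bases long with 76.0% G or C.
PPAT-PAICS stretch (chr4:56435616-56435740): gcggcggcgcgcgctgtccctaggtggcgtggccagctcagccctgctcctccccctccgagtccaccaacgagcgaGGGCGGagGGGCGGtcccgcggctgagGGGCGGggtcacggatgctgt
The GC box, on either strand, stood in the 125 bases before 34.5% of all annotated starts. Within each library, the ratio of PPAT to PAICS per exon length was 0.217 in the reads of FGF2 library 1 and 0.223 in the other FGF2 reads, against 0.188 and 0.199 in NC, so both FGF2 ratios lay above both NC ratios.

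The promoter windows of the enzymes were also searched for the E-box CACGTG, the palindrome bound by MYC and related factors. Windows ran from 250 bases before to 50 after each start in RefSeq (GRCh38.p14), and 36 of the 38 genes had one, all but ADSL and IMPDH2. The E-box was in 9 of 64 windows (14.1%) against 7.26% of all 35116 windows, and in 7 of 36 genes (19.4%) against 8.77% of 27305 genes. The enzymes had more windows per gene than that background, which takes in all starts whether or not AGS cells express the gene. The shares are therefore not matched. Those 7 were ATIC, DHODH, NME1 and PPAT, which were called higher, and MTHFD1, MTHFD1L and PAICS, which were not. The sites are shown so that their flanks can be compared, with the E-box in capitals, on the plus strand except for PPAT.
PPAT (chr4:56435780-56435809): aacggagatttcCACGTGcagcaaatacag
ATIC upstream (chr2:215312001-215312030): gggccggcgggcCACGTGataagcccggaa
ATIC downstream (chr2:215312076-215312105): ctcctacctgcgCACGTGgtgccgccgctg
DHODH (chr16:72008573-72008602): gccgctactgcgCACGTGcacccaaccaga
NME1 (chr17:51153581-51153608): agtgctgcgaacCACGTGggtcccgggc
MTHFD1 (chr14:64388326-64388355): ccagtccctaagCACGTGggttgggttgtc
MTHFD1L (chr6:150866320-150866349): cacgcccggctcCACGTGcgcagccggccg
The PPAT site is the same stretch of DNA as the PAICS site, at position -182 from a start of PPAT and at 41 from one of PAICS. The ATIC sites begin at -46 and 30 from RefSeq starts. The letters CCGGAAGT, bound by ETS factors and searched on both strands, were in 4 of 64 windows (6.25%) against 4.14% of all windows, at GART, MTR and NME1. A match describes the letters only.

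In the branches from inosine monophosphate, 2 of 4 enzymes were called higher, against 12.2% of all genes. Both calls fell on the enzymes that commit inosine monophosphate to GMP. IMPDH1 (chr7:128392277-128410252), which oxidises inosine monophosphate as the rate-limiting step to GMP, stood at 85.2 and 85.9 FPKM in FGF2 and 71.0 and 72.8 in NC. Its isoenzyme IMPDH2 (chr3:49024325-49029408) stood at 107 and 107 FPKM against 92.9 and 92.7. Both genes were called higher, with no overlap between the groups and log2 fold changes of 0.32 (0.27 to 0.36) and 0.29 (0.24 to 0.33). Both calls ended under total-count scaling. The ratio of IMPDH1 to IMPDH2 per exon length, 0.796 and 0.811 in the FGF2 read sets and 0.764 and 0.808 in NC, overlapped between the groups. GMPS, which aminates the product to GMP, stood at 25.3 and 26.1 FPKM against 23.6 and 24.0, a log2 fold change of 0.20 without a call. ADSS, the synthetase of the AMP branch, stood at 17.7 and 17.0 FPKM against 18.4 and 17.1, its groups overlapped, and its log2 fold change was 0.07.

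De novo pyrimidine synthesis had 1 call among 5 enzymes, against 12.2% of all genes called higher, and a median log2 fold change of 0.25. DHODH (chr16:72008588-72027664), the inner mitochondrial membrane enzyme that makes orotate, stood at 4.70 and 4.49 FPKM in FGF2 and 2.95 and 3.32 in NC. The groups did not overlap, and the log2 fold change was 0.52 (0.37 to 0.67). Its size varied between the read sets, with 0.76 in library 1 and 0.28 in the other reads, and the call ended under total-count scaling. CAD, the trifunctional enzyme of the first steps, stood at 49.4 and 51.0 FPKM against 47.2 and 47.0, a log2 fold change of 0.20 (0.16 to 0.24). UMPS, which joins the ring to PRPP and makes UMP, stood at 11.3 and 11.3 FPKM against 10.5 and 9.96, a log2 fold change of 0.27. At CAD, UMPS and CTPS1 the FGF2 read sets lay above NC without a call. CTPS1, the CTP synthase that lymphocytes rely on when they proliferate, stood at 28.3 and 29.5 FPKM against 26.2 and 26.3, and its paralogue CTPS2 at 4.83 and 5.41 against 5.78 and 5.74. CTPS2 overlapped between the groups, with log2 fold changes of -0.18 in library 1 and 0.14 in the other reads. The ratio of CTPS1 to CTPS2 per exon length was 5.87 and 5.12 in the FGF2 read sets and 4.54 and 4.63 in NC, so both FGF2 values lay above both NC values, by less than the FGF2 values differed from each other.

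PRPP synthesis, which feeds both routes and the salvage of bases, had no call among 4 genes. Of all genes, 12.2% were called higher and 13.8% lower. The median log2 fold change of the 4 genes was 0.10, the lowest median of the 7 roles. PRPS1, the main PRPP synthetase of most tissues, stood at 64.6 and 64.5 FPKM in FGF2 and 61.3 and 65.2 in NC. Its groups overlapped, with log2 fold changes of 0.16 in library 1 and -0.04 in the other reads. PRPS2, the second isoenzyme, stood at 54.5 and 51.2 FPKM against 47.8 and 45.1, and its log2 fold change of 0.26 (0.20 to 0.33) lay at the bound. The ratio of PRPS2 to PRPS1, 0.843 and 0.745 in the FGF2 read sets and 0.780 and 0.609 in NC, overlapped between the groups. The associated proteins PRPSAP1 and PRPSAP2, which bind the synthetases and restrain them, had log2 fold changes of 0.13 and 0.02. PRPSAP1 stood at 7.16 and 7.40 FPKM in FGF2 against 7.25 and 7.14, and PRPSAP2 at 9.93 and 9.83 against 10.3 and 10.2.

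Of 5 nucleotide kinases, 2 were called higher, against 12.2% of all genes. Both calls fell on the NME pair, which makes nucleoside triphosphates from diphosphates. NME1 (chr17:51153536-51162428) stood at 19.3 and 17.0 FPKM in FGF2 and 10.6 and 10.7 in NC, from 1611 and 1004 counts in libraries 2. The groups did not overlap, and the log2 fold change was 0.75 (0.63 to 0.86). Its size varied between the read sets, with 0.94 in library 1 and 0.52 in the other reads, and NME1 was not called by the 1.5-fold bound. NME2 (chr17:51165435-51171747) stood at 2.56 and 2.40 FPKM against 1.35 and 1.46, from only 174 and 105 counts, a log2 fold change of 0.79 (0.44 to 1.16). Both levels are uncertain, because 75.6% of the coding bases of NME1 and 100% of those of NME2 are shared with the annotated readthrough gene NME1-NME2, which had 0 counts in all 4 libraries. How reads on shared bases were counted is not stated in the deposited tables. The kinases that make diphosphates had smaller values and no call. CMPK1, for UMP and CMP, stood at 40.1 and 40.3 FPKM in FGF2 against 39.2 and 37.99 in NC, with a log2 fold change of 0.17. GUK1, for GMP, stood at 39.4 and 38.4 FPKM against 35.1 and 36.0, with a log2 fold change of 0.18. DTYMK, for thymidylate, went the other way, with 53.1 and 51.1 FPKM in FGF2 against 57.1 and 56.6 and a log2 fold change of -0.07, and its scaled read sets overlapped.

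**Figure D2:**
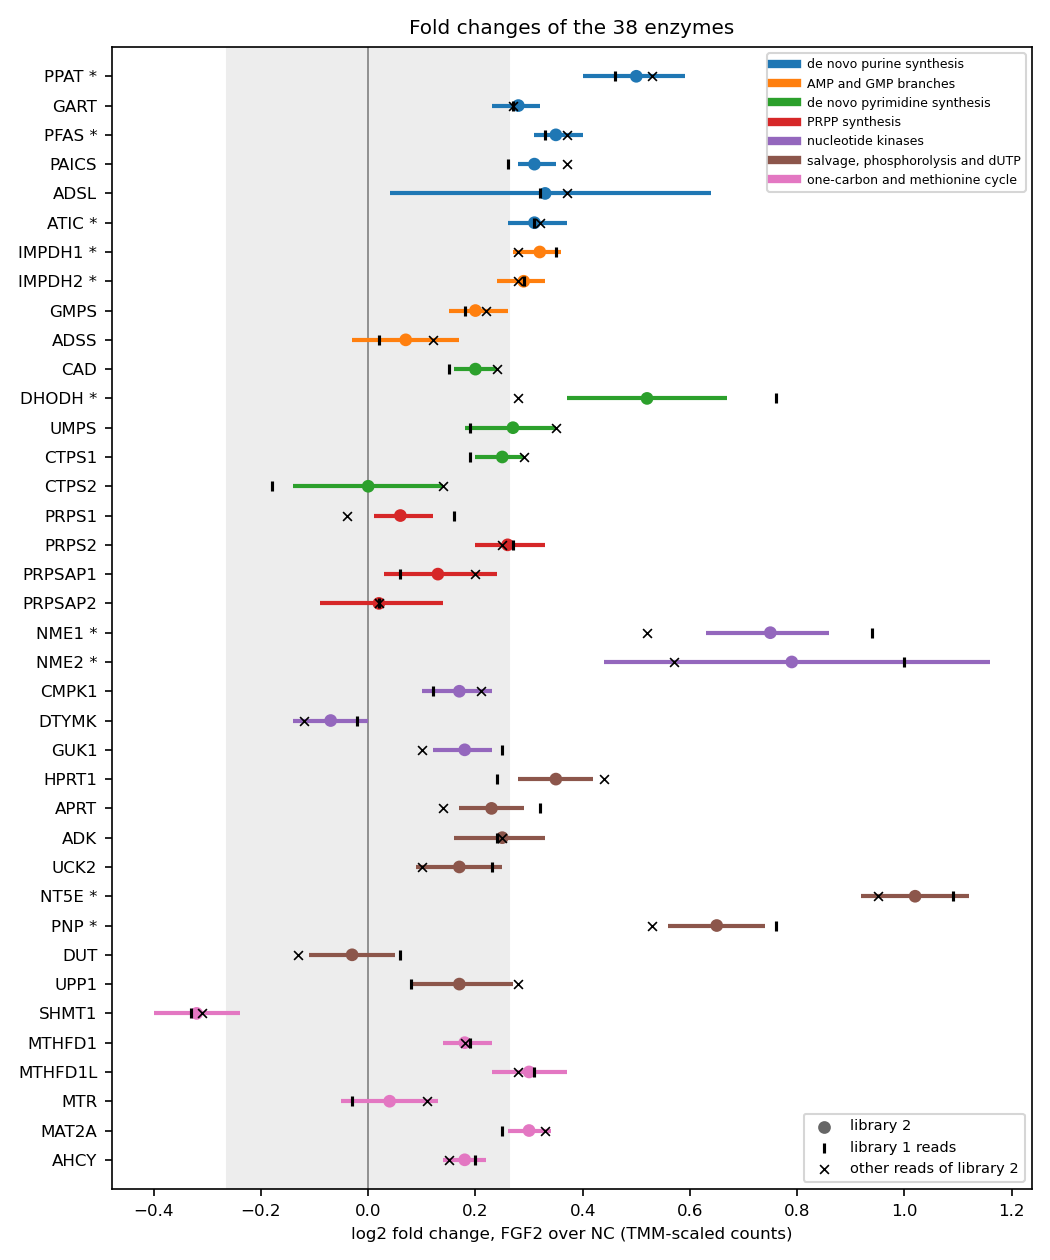
Log2 fold change of FGF2 over NC from TMM-scaled library 2 counts for the 38 enzymes (points, coloured by role), with bars for the 95% counting interval, ticks for library 1, crosses for the other reads of library 2, and asterisks at the 10 genes called higher. The grey band is the 1.2-fold bound on either side of 0; 34 of the 38 points lie right of 0, NT5E lies farthest right at 1.02, and SHMT1 at -0.32 is the only point left of the band.

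Salvage, phosphorolysis and dUTP removal held the enzyme with the largest difference of the 38. NT5E (chr6:85449584-85495791), the surface enzyme CD73 that turns extracellular AMP into adenosine, stood at 18.7 and 18.9 FPKM in FGF2 and 9.31 and 9.85 in NC. The FGF2 libraries stood 2.03-fold above NC on the scaled counts, from 2368 and 1220 counts in libraries 2, a log2 fold change of 1.02 (0.92 to 1.12), with 1.09 in library 1 and 0.95 in the other reads. PNP (chr14:20468954-20477094), the phosphorylase that splits inosine and guanosine, stood at 23.2 and 22.8 FPKM against 14.5 and 15.4, a log2 fold change of 0.65 (0.56 to 0.74). The groups did not overlap at either gene, and both calls held under total-count scaling. They were the 2 calls among the 8 enzymes of this role, against 12.2% of all genes, or 8.49% under that scaling. PNP shares 11.9% of its exon bases and 19.4% of its coding bases with another annotated gene. Against ADK, which phosphorylates adenosine back to AMP inside the cell, the ratio of NT5E per exon length was 0.688 and 0.673 in the FGF2 read sets and 0.383 and 0.413 in NC.

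The enzymes that salvage bases and nucleosides lay above NC without a call. HPRT1, which returns hypoxanthine and guanine to nucleotides, stood at 76.2 and 84.0 FPKM in FGF2 and 68.4 and 69.7 in NC, a log2 fold change of 0.35 (0.28 to 0.42). APRT, which does so for adenine, stood at 85.4 and 86.1 FPKM against 72.7 and 77.6, a log2 fold change of 0.23. ADK stood at 27.2 and 27.8 FPKM against 24.3 and 24.8, with a log2 fold change of 0.25. At these genes and at UCK2, the uridine and cytidine kinase (13.3 and 12.7 FPKM against 12.0 and 11.9), the read sets of the groups were apart with no call. UPP1, the uridine phosphorylase, stood at 14.0 and 13.9 FPKM against 14.0 and 13.0, with a log2 fold change of 0.17. DUT, which breaks down dUTP and keeps uracil out of DNA, stood at 24.9 and 24.3 FPKM against 25.2 and 26.3, overlapped between the scaled groups, and had a log2 fold change of -0.03. DUT shares 14.5% of its exon bases and 32.6% of its coding bases with a gene on the opposite strand, whose reads this kit cannot separate.

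The one-carbon and methionine members held the sole enzyme whose FGF2 read sets both lay below NC. SHMT1 (chr17:18327860-18363563, minus strand), the cytosolic enzyme that takes a one-carbon unit from serine, stood at 11.01 and 10.8 FPKM in FGF2 and 14.6 and 14.2 in NC. The groups did not overlap, and the log2 fold change was -0.32 (-0.40 to -0.24), with -0.33 in library 1 and -0.31 in the other reads. It missed the 1.2-fold rule under TMM and was called lower under total-count scaling. Its mitochondrial counterpart SHMT2 was not called, with a log2 fold change of 0.27. The ratio of SHMT2 to SHMT1 per exon length was 4.83 and 4.84 in the FGF2 read sets against 3.15 and 3.31 in NC.

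The remaining 5 members of that role were not called, while 12.2% of all genes were called higher and 13.8% lower. MTHFD1, the trifunctional cytosolic folate enzyme, stood at 27.8 and 27.6 FPKM in FGF2 and 25.9 and 25.7 in NC, with a log2 fold change of 0.18. MTHFD1L, its mitochondrial relative that releases formate, stood at 29.2 and 28.4 FPKM against 24.9 and 24.4, with a log2 fold change of 0.30 (0.23 to 0.37). MAT2A, which makes S-adenosylmethionine, stood at 97.9 and 103 FPKM against 87.1 and 88.5, with a log2 fold change of 0.30 (0.26 to 0.34), and shares 12.4% of its exon bases, none of them coding, with another gene. These 3 genes, and AHCY, which clears S-adenosylhomocysteine (107 and 109.6 FPKM against 98.8 and 102, log2 fold change 0.18), had FGF2 read sets above NC. MTR, the methionine synthase that joins the folate and methionine cycles, stood at 6.15 and 6.36 FPKM against 6.65 and 6.54, overlapped between the scaled groups, and had a log2 fold change of 0.04.

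The levels per exon length spanned a wide range, with the same genes at its ends in both groups. In FGF2 library 2, AHCY (109.6 FPKM), IMPDH2 (107) and MAT2A (103) led the 38 enzymes. NC library 2 had the same leaders, with 102 FPKM for AHCY, 92.7 for IMPDH2 and 88.5 for MAT2A. ADSL, NME2, DHODH and CTPS2 were the lowest in both, and the first and second of these carry the shared bases given above. DHODH thus had a low level and one of the wider differences, and its ratio to CAD was 0.0952 and 0.0812 in the FGF2 read sets against 0.0624 and 0.0793 in NC. The nearest ratios of the groups, 0.0812 and 0.0793, lay closer together than the read sets within either group.

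**Figure D3:**
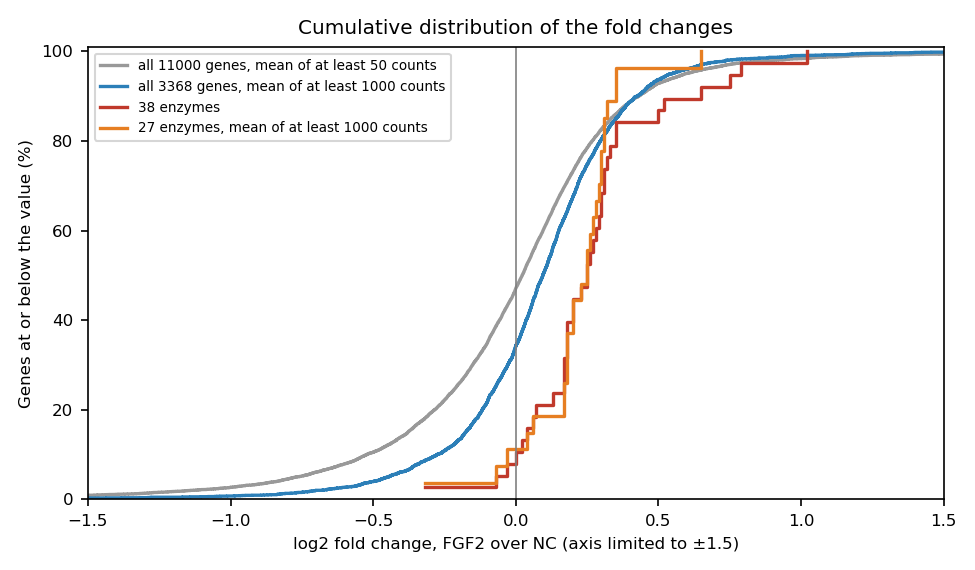
Cumulative share of genes (percent) at or below each log2 fold change of FGF2 over NC, for all 11000 genes above the 50-count minimum (grey), the 3368 genes of at least 1000 mean counts (blue), the 38 enzymes (red) and the 27 enzymes of at least 1000 mean counts (orange); the axis is limited to 1.5 on either side of 0. The enzymes' curves cross the middle at 0.25, to the right of the 0.02 (grey) and 0.09 (blue) of the gene backgrounds.

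The other genes of these pathways showed no common lean. Of 123 such genes in 10 lists, 77 reached the count minimum, and 12 were called higher and 14 lower, against 12.2% and 13.8% of all genes. With total-count scaling the calls were 9 and 15, against 8.49% and 17.6% of all genes. Their median log2 fold change was -0.02 and 36 of the 77 (46.8%) were above 0, against the 0.02 and 52.9% given above for all genes. Values in parentheses below are log2 fold changes. In the mitochondrial one-carbon list of 6 measured genes, MTHFD2L (0.88) was called higher, from a mean of only 58.0 counts per read set. SARDH (-0.59), which oxidises sarcosine, was called lower. In the folate list of 6 measured genes, MTRR (0.38), which reactivates MTR, was called higher and 0 were called lower. PHGDH (-0.58), the first enzyme of serine synthesis, was the sole call among 3 genes of that route.

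The pentose phosphate and deoxynucleotide lists held few calls. In the pentose phosphate pathway, the source of ribose for PRPP, PGLS (-0.59) of the oxidative arm was called lower and RPIA (0.47), which makes ribose phosphate, higher, of 6 measured. Among 13 measured genes of deoxynucleotide supply, the thymidine kinases TK1 (-0.44) and TK2 (-0.46) were called lower and 0 higher. Of all genes, 13.8% were called lower and 12.2% higher, and TK2 had a mean of only 85.5 counts per read set. The ribonucleotide reductase subunits RRM1 (0.02) and RRM2 (0.07) and thymidylate synthase, TYMS (-0.05), named here after their values were seen, were not called. Of 13 other kinases, NME3 (-0.80) was called lower, and AK4 (0.48), AK6 (0.48) and NME7 (0.47) higher. Of 13 measured breakdown enzymes, 2 were called higher and 3 lower, led by the cytidine deaminase CDA (-1.03), the methylthioadenosine phosphorylase MTAP (0.62), NT5C3A (0.56) and NT5C2 (-0.50). Bases shared with other annotated genes made up 36.7% of the exons of NT5C2, 24.5% of AK6 and 25.0% of TK2.

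At the cell surface, the adenosine receptor ADORA2B had a log2 fold change of 1.06, with 27.6 and 28.3 FPKM in FGF2 and 13.9 and 14.3 in NC, close in size to that of NT5E, whose product it binds. It was the sole call among 2 measured adenosine receptors. Of all genes, 12.2% were called higher and 13.8% lower. Of 5 measured nucleoside and nucleobase transporters, SLC29A1 (0.61), the equilibrative nucleoside transporter ENT1, and SLC43A3 (0.97), a purine base transporter, were called higher, and SLC29A2 (-0.59) and SLC29A4 (-1.0) lower. SLC43A3 shares 29.9% of its exon bases with another annotated gene. In the list of methionine and S-adenosylmethionine use, 2 of 11 measured genes were called higher and 3 lower, against 12.2% and 13.8% of all genes. The calls were led by the methyltransferases NNMT (-0.86) and GAMT (-0.63), by AHCYL2 (-0.78), and by MTRR.

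**Figure D4:**
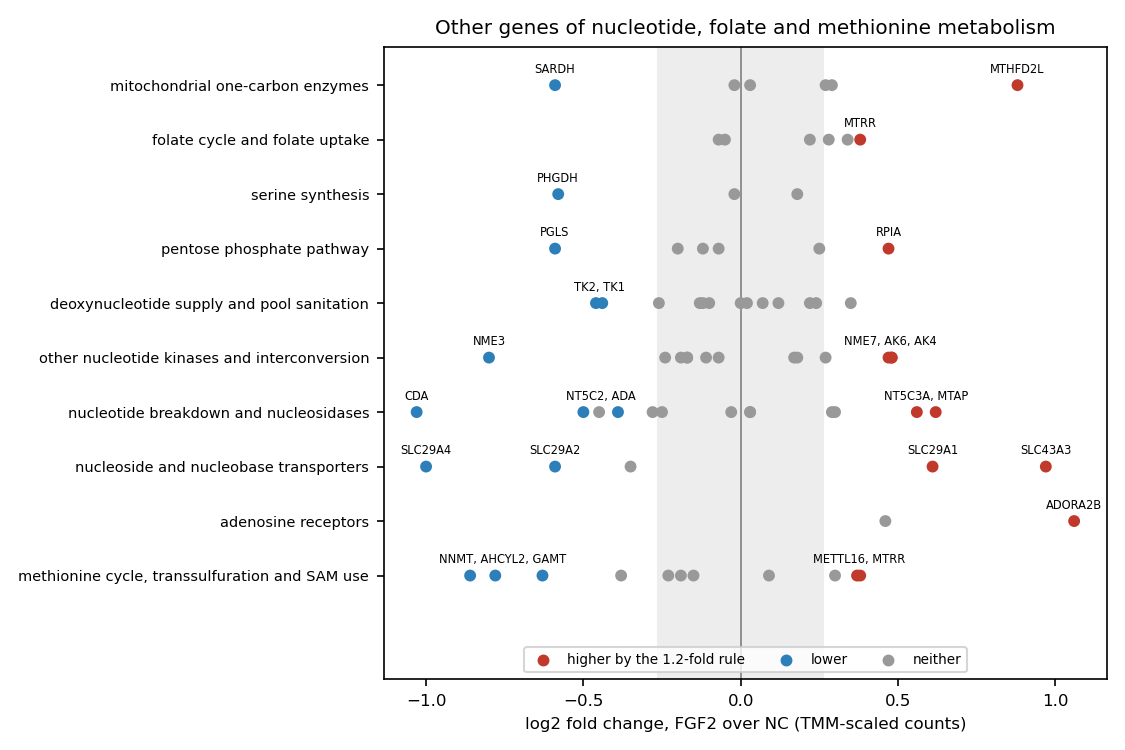
Log2 fold change of FGF2 over NC for the 77 measured genes of 10 further lists of nucleotide, folate and methionine metabolism, each point 1 gene, with genes called by the 1.2-fold rule named in red (12 higher) and blue (14 lower). The grey band is the 1.2-fold bound on either side of 0, 6 of the 10 lists hold calls on both sides of it, and ADORA2B at 1.06 and CDA at -1.03 lie farthest out.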

How the data were processed

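Polyadenylated RNA of 4 AGS libraries was analysed, 2 called FGF2 and 2 called NC by their titles. The authors deposited raw read counts per gene and FPKM values (counts divided by exon length and library total). The submitters' processing notes name HISAT2, HTSeq 0.13.5 and GRCh38, but no source used here names the annotation release. All 51103 identifiers are in GENCODE v29, whose exon lengths matched those implied by the FPKM values at 99.5% of 11923 genes, so its coordinates were used. No label says whether the libraries stem from separate cultures.

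From the counts, edgeR 4.0.16 in R 4.3.3 gave TMM factors over the 14043 genes kept by filterByExpr, and DESeq2 1.42.0 gave size factors as an alternative. Fold changes had 0.5 added to each count. Log2(FPKM + 0.1) served as an alternative to counts. Since library 2 of a group contains library 1, no test was run, and the rule of size stood in its place. All 38 enzymes are named. The FGF and ERK target genes are given as counts. For the other pathway lists, all called genes are named, or the 4 with the largest change where more were called. A few genes of the marker and pathway lists are not reported here and were left out of the counts and sums of those lists. The members and lists were chosen with earlier results of these data known.

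Motifs were searched in RefSeq promoter windows of GRCh38.p14, where ADSS was matched through its synonym. Alternatives were other scaling, count minimum, fold bound and unit, leaving out a read set, and leaving out the 7 enzymes that share at least 10% of their exon bases with another gene.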

Additional observations from a re-analysis of the deposited data

How the results depend on the processing

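The count of 10 enzymes called higher was 10 with DESeq2 size factors (against 12.4% of all genes). It was 11 with no count minimum (against 10.5% of genes with any count). Without enzymes that share exon bases it was 7 of 31 (against 12.2% of all genes). The count moved to 5 with total-count scaling (against 8.49% of all genes) and 6 with deposited FPKM (against 11.1%). With a 1.5-fold bound it was 1 (against 3.06%), and with a mean of 1000 counts 5 of 27 (against 15.9%). Leaving out a read set gave 15 to 19, where fewer read sets had to pass and 21.8% and 22.6% of all genes passed. The count called lower moved from 0 to 1, SHMT1 each time, with total-count scaling, with FPKM and on leaving out either read set (range 1 to 1). Of all genes, 17.6% were called lower with total-count scaling and 21.9% with FPKM. Without library 1 that share was 23.3%, and without the other reads 22.2%. The median log2 fold change of 0.25 ranged from 0.24 to 0.26 without a read set and was 0.23 without enzymes that share exon bases. With TMM factors over all genes it was 0.26. It moved to 0.17 with total-count scaling and 0.17 with FPKM, where the median of all genes kept was -0.08. ADSS, MTR, PRPS1 and PRPSAP2, none of them called, changed sign under total-count scaling and FPKM. So did PRPS1 without library 1, and DUT and MTR without library 2. CTPS2, at -0.00, was 0.15 without library 1 and 0.01 with TMM factors over all genes. No paired analysis was possible because library 2 of each group contains the reads of library 1, which leaves 1 sample a group and a result that comes from no test. Depth limits NME2 and ADSL most, at 105 and 171 counts in NC library 2. A difference between cultures was not tested.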
